A study of Mus musculus with 4 samples.

Results

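The Bcl2 family, the caspases and the regulators around them decide whether a cell survives or dies, and 37 of their genes were followed here in mouse monocytes that were turning into dendritic cells with or without retinoic acid. A member was counted where the platform annotation gave a probe set, the unit of measurement on the array, with that gene as its only symbol. This held for 32 of the 37 genes, measured by 39 probe sets, out of 22180 genes in the series. Bcl2a1b and Bcl2a1d had only probe sets shared with Bcl2a1a, and Bax, Ripk1 and Trp53 were not analysed here. Where a gene had several probe sets, the brightest over the 4 arrays stands for it and the others are given beside it.

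The cells of every group were Ly6C-high monocytes, enriched with a kit and then sorted from bone marrow pooled from 3 mice, and the medium of all 4 samples held 20 ng per ml of GM-CSF and 20 ng per ml of interleukin 4. All-trans retinoic acid at 100 nM was given to 2 samples and the solvent DMSO to the other 2 from the first moment of culture, and RNA was taken 24 h later, on day 1. The labels name no strain, sex or age. They do not say whether the replicates came from separate cultures or pools, so each p-value reflects the spread between these 4 samples alone, and part or all of that spread may be technical.

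In apoptosis through mitochondria, anti-apoptotic Bcl2 proteins hold the pore-forming effectors Bax and Bak in check, and BH3-only proteins bind the anti-apoptotic ones and release that hold. Cytochrome c then leaves the mitochondria, joins Apaf1 and activates initiator caspases, which cut and activate executioner caspases. Death receptors such as Fas start caspase activation from the membrane, and where caspase activity fails, Ripk3 and Mlkl can rupture the cell in necroptosis. Monocytes are short-lived cells whose survival in culture depends on growth factors such as GM-CSF, and Mcl1 and Bcl2a1 are known as survival proteins of myeloid cells.

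Of the 32 death regulators, 4 passed the test between retinoic acid and DMSO and 28 did not. Mlkl, the executioner of necroptosis, rose 2.13-fold. Casp6, an executioner caspase, was 2.04-fold lower, Bcl2l1, which encodes the anti-apoptotic Bcl-xL, 1.81-fold lower, and Cdkn1a, which encodes the cell cycle inhibitor p21, 1.76-fold lower. The test was limma's moderated comparison over all 39720 varying probe sets, and a gene passed at a Benjamini-Hochberg adjusted p under 0.05. By that rule 12.5% of the members passed, beside 3.07% of all genes and 2.09% of all probe sets. For rises alone the share over all genes was 1.28%, and for falls 1.79%. These shares include genes with low intensity. In a fit of only the probe sets above the median intensity, 6 of 31 members passed, beside 7.84% of genes. The median difference of the 32 members was -0.02 on the log2 scale (retinoic acid minus DMSO), beside 0.01 over all genes. In bulk RNA, fewer cells of a type and less RNA per cell cannot be told apart.

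**Figure D1:**
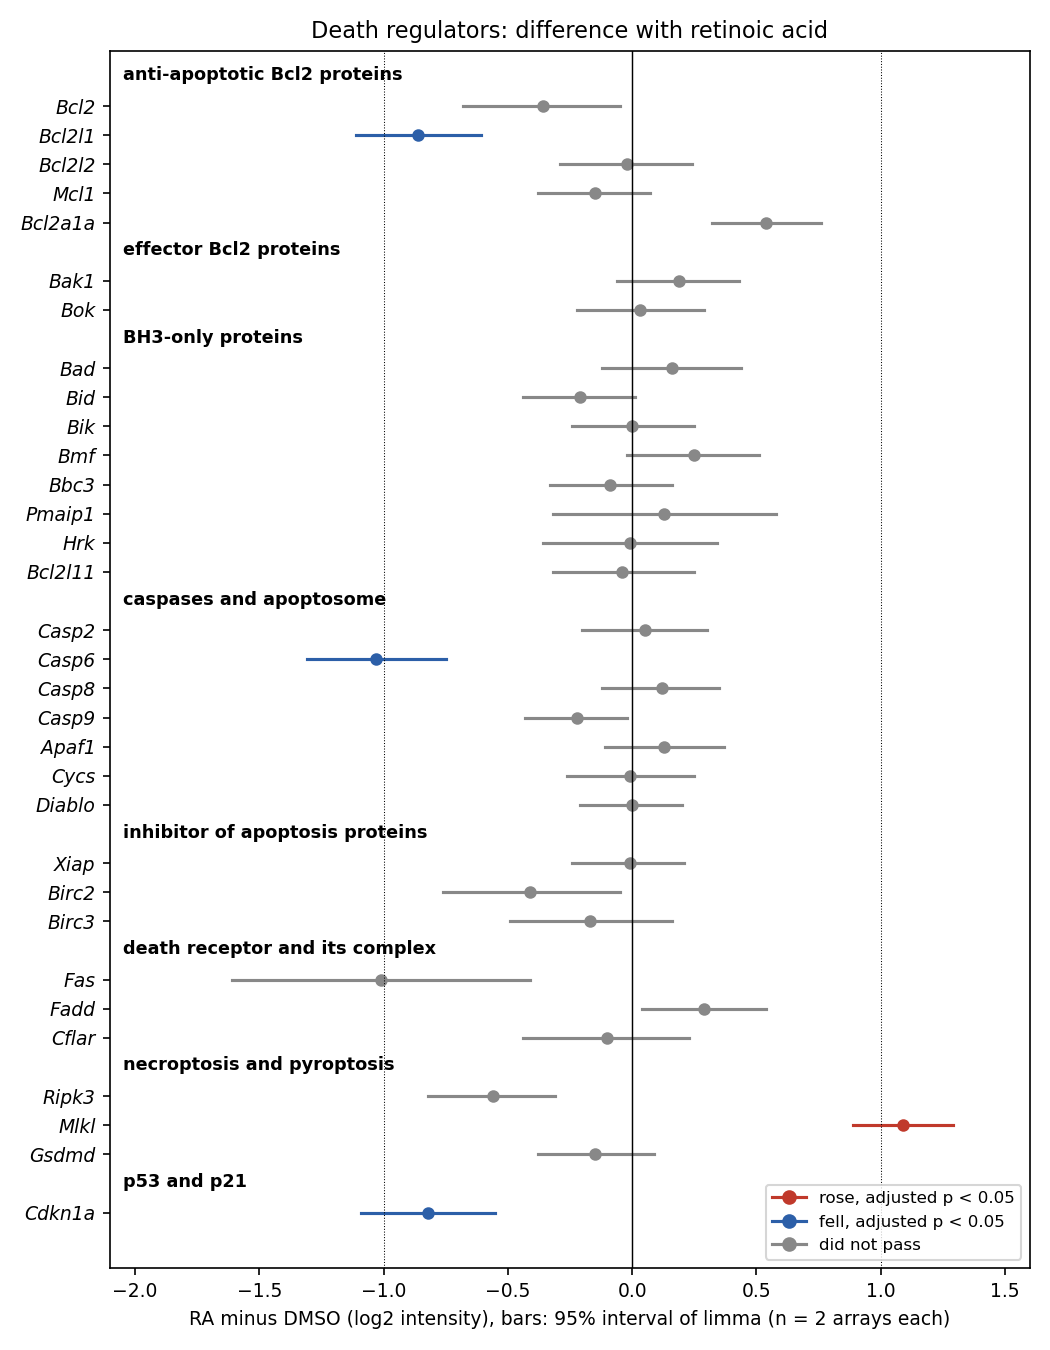
Difference between retinoic acid (RA) and DMSO for each of the 32 measured death regulators (x axis, log2 intensity; bars, 95% interval of limma; n = 2 arrays in each group), grouped by role. Dotted lines mark a 2-fold difference; Mlkl at 1.09 stands alone on the right, and Casp6, Bcl2l1 and Cdkn1a are the blue points on the left.

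The 4 calls rest on all 4 arrays. Without DMSO replicate 1, DMSO replicate 2, retinoic acid replicate 1 or retinoic acid replicate 2, limma called 0 of the 32 members each time, with between 7 and 11 of them at an unadjusted p under 0.05; of all genes, 0.149%, 0.153%, 0.0857% and 0.198% passed in these fits. The adjusted p of Mlkl was then 0.109, 0.101, 0.0884 and 0.0873 in that order. For Casp6 it was 0.162, 0.187, 0.0827 and 0.105, for Bcl2l1 0.163, 0.143, 0.147 and 0.139, and for Cdkn1a 0.201, 0.187, 0.125 and 0.177. The direction of these 4 genes was the same in every such fit. This had to be so, because their groups did not overlap, and it does not show that the calls are stable. The 4 calls also depend on the exclusion of 1625 probe sets without a gene symbol whose value was constant across the arrays. This exclusion, like the members, was chosen with earlier results of these data known. With the constant probe sets included, limma called 0 members (10 at an unadjusted p under 0.05) and 0% of all genes, and the adjusted p was 0.0624 for Mlkl, 0.113 for Casp6, 0.104 for Bcl2l1 and 0.131 for Cdkn1a. A fit with the replicate number as a block also called 0 members (8 at an unadjusted p under 0.05), beside 0.64% of all genes. The labels do not say that a number marks a shared culture. In the reported fit 11 members and 15.1% of all genes, those with low intensity included, were at an unadjusted limma p under 0.05. That share of all genes was not computed for the other fits, so their unadjusted counts have no background beside them. For 2 arrays a group, 0.333 is the smallest p of an exact two-sided permutation test, so that test could not pass the threshold for any member.

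**Figure D2:**
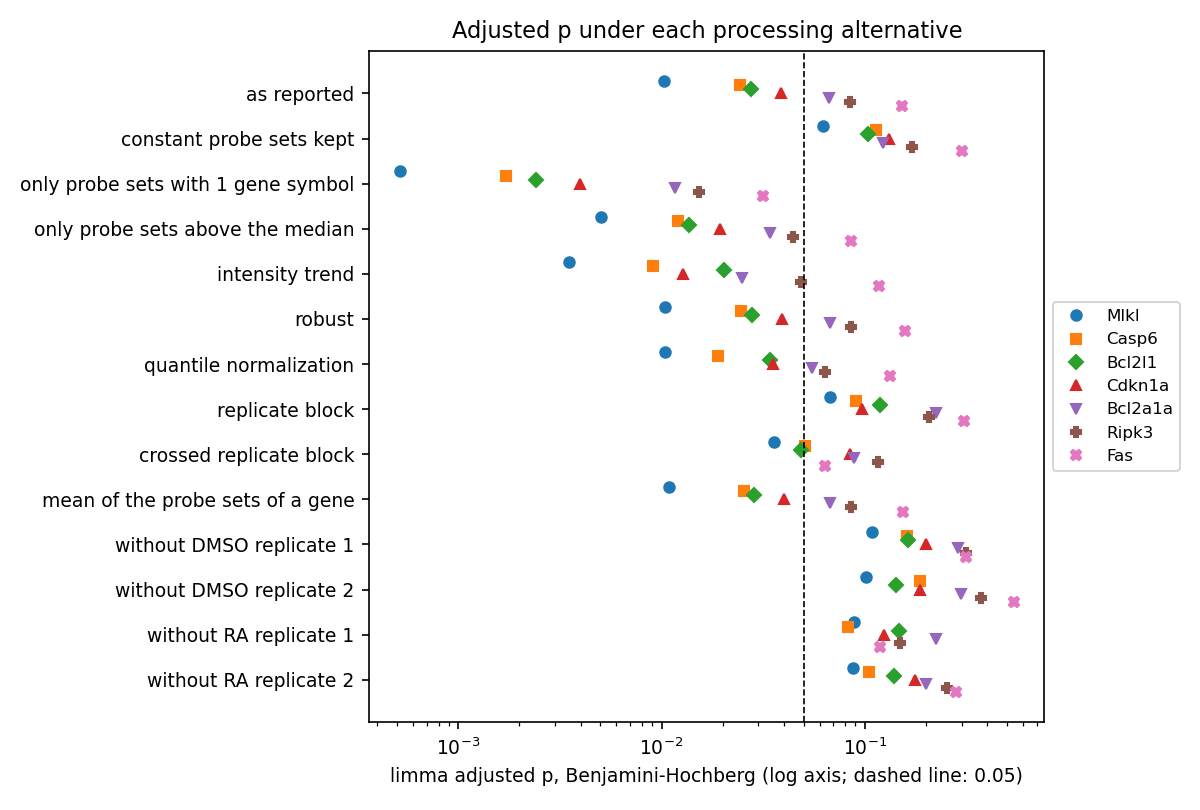
Limma adjusted p (x axis, log scale) of 7 death regulators under the reported analysis (top row) and each processing alternative (other rows); the dashed line is the threshold of 0.05. Mlkl, Casp6, Bcl2l1 and Cdkn1a lie left of the line as reported and right of it in each of the 4 rows that leave out an array.

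The labelled cell type was checked against marker genes. A dim level was set at 6.35 (log2 intensity), under which 95% of 1400 probe sets of olfactory and vomeronasal receptors had their mean. All 13 monocyte and dendritic cell markers were above it in both groups, among them Ly6c2 at 11.91 with DMSO and 11.72 with retinoic acid, and 3 of them fell (Zbtb46, H2-Ab1 and Ciita). Of 9 T and NK cell markers 7 were under that level in both groups and 0 passed limma's test (1 at an unadjusted p under 0.05). Of 7 B cell markers 5 were under it in both groups, and Cd79b, a subunit of the B cell receptor, rose from 7.04 to 7.70 (limma adjusted p = 0.0471). Of 6 erythroid and megakaryocyte markers 1 was under it in both groups, with the platelet gene Pf4 at 7.71 with DMSO and 7.40 with retinoic acid, and of 7 basophil and mast cell markers 2 were; 0 of either list passed (1 of each at an unadjusted p under 0.05). Of 14 neutrophil markers only Retnlg was under it in both groups, and Ly6g was under it with DMSO (6.33) and near it with retinoic acid (6.42). The other markers ranged widely. Elane, Mpo and Prtn3, genes of granule proteins, had DMSO means of 11.69, 11.69 and 11.02. Those of Ngp, Cxcr2, S100a8, Ltf, S100a9 and Mmp8 were 11.42, 11.40, 11.10, 10.57, 10.47 and 10.02. Csf3r, Camp and Mmp9 had lower DMSO means of 8.39, 7.88 and 7.64. Among the 14, 2 rose (Mmp9 and the dim Retnlg) and 1 fell (Cxcr2). The summed intensity of the 14 was 21222 and 21296 with DMSO and 21955 and 20852 with retinoic acid. The part of such cells in the results below was not tested. As with the members, none of the marker genes passed with the constant probe sets kept. With the replicate number as a block, Zbtb46 and H2-Ab1 passed (limma adjusted p = 0.0428 for each). Ciita (0.0515), Retnlg and Cxcr2 (0.0728 for each), Mmp9 (0.106) and Cd79b (0.145) did not pass there.

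Among the anti-apoptotic Bcl2 genes, Bcl2l1 alone passed. Of 5 measured genes 1 fell, 0 rose and 4 did not pass, with a median log2 difference of -0.15. Bcl2l1 (probe set 17392991), whose protein Bcl-xL binds BH3-only proteins and the effectors, had log2 intensities of 8.35 and 8.19 with DMSO and 7.37 and 7.46 with retinoic acid. Both retinoic acid arrays were lower than both DMSO arrays, with a gap of 0.74 between the groups. The means were 8.27 ± 0.11 and 7.41 ± 0.06 (SD, n = 2), a difference of -0.86 ± 0.09 (log2, SE; limma adjusted p = 0.0275). Here and below the SE is limma's moderated one, which draws on the spread of all tested probe sets and not only on the SDs shown. Leaving out any 1 array gave differences between -0.94 and -0.78.

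Bcl2a1a, which encodes a short-lived anti-apoptotic protein of blood cells, lay in the other direction and did not pass. Its log2 intensities were 10.23 and 10.31 with DMSO and 10.86 and 10.76 with retinoic acid, so the groups did not overlap, and the difference was 0.54 ± 0.09 (log2, SE; limma adjusted p = 0.0666). The mouse genome holds several near-identical Bcl2a1 copies whose probes may share targets. A probe set annotated to both Bcl2a1b and Bcl2a1a read 10.89 and 11.03 with DMSO and 11.70 and 11.57 with retinoic acid (difference 0.67 ± 0.10, adjusted p = 0.0526). Another, annotated to Bcl2a1d, Bcl2a1a and Bcl2a1b, read 11.29 and 11.41, then 11.92 and 11.76 (difference 0.49 ± 0.10, adjusted p = 0.117). These 2 shared probe sets are outside the 32 members, do not tell the copies apart and are not independent of the Bcl2a1a reading. All 3 were higher on both retinoic acid arrays, and none passed.

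Bcl2 itself, the founding member of the family, read 9.51 and 9.35 with DMSO and 8.94 and 9.19 with retinoic acid in its brighter probe set. The arrays with retinoic acid were both lower, by -0.36 ± 0.12 (log2, SE), and this did not pass (limma adjusted p = 0.308). Its second probe set was under the dim level in both groups and differed by 0.01 ± 0.13, so it does not show whether the gene responded. Mcl1, a survival protein with rapid turnover, read 11.55 and 11.66 with DMSO and 11.47 and 11.43 with retinoic acid. Its difference of -0.15 ± 0.09 did not pass (adjusted p = 0.535), with a 95% interval from -0.38 to 0.07. The second probe set of Mcl1 gave -0.15 ± 0.08. Bcl2l2, which encodes Bcl-w, differed by -0.02 ± 0.10, with an interval from -0.29 to 0.24 and overlapping groups.

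**Figure D3:**
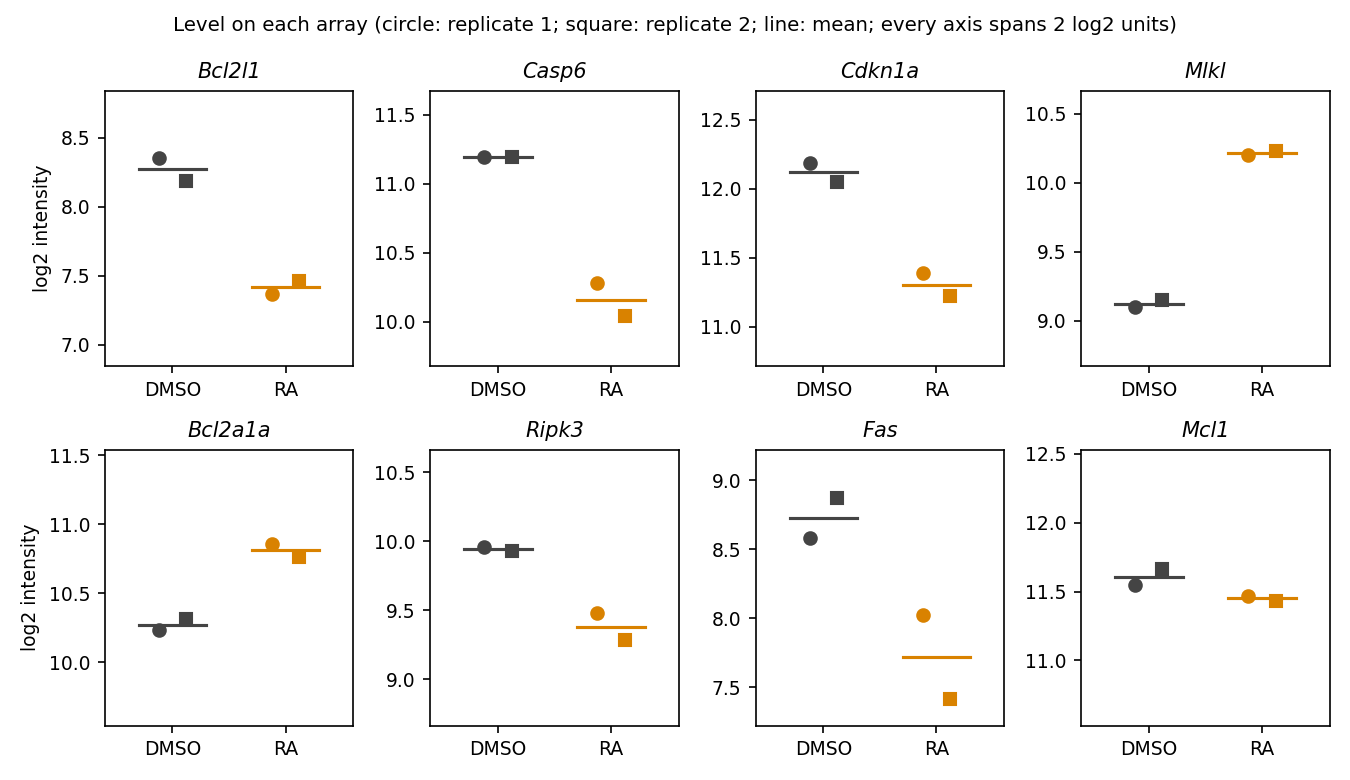
Log2 intensity (y axis, spanning 2 log2 units in each panel) of 8 death regulators on every array with DMSO (grey) or retinoic acid (RA, orange); circles are replicate 1, squares replicate 2 and lines the mean. In the top row the groups lie at least 0.66 apart, Fas shows the wide spread of its retinoic acid arrays (8.02 and 7.41), and the groups of Mcl1 lie 0.07 apart.

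The effectors and the BH3-only proteins, which promote death, had no member that passed. Bak1, which forms pores in the outer mitochondrial membrane, read 11.04 and 11.20 with DMSO and 11.32 and 11.29 with retinoic acid, a difference of 0.19 ± 0.09 (log2, SE; limma adjusted p = 0.491). Bok, a related effector, differed by 0.03 ± 0.10, with overlapping groups. The 8 BH3-only genes differed by -0.21 to 0.25, with 0 at an unadjusted p under 0.05 (15.1% of all genes were under it) and a smallest adjusted p of 0.399. At either end of that range stood Bid, which links death receptors to mitochondria once cut by a caspase (8.67 and 8.69 with DMSO, 8.53 and 8.39 with retinoic acid), and Bmf, a sensor linked to the cytoskeleton (6.84 and 6.82, then 6.97 and 7.19). In both genes the groups did not overlap.

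Bcl2l11, which encodes Bim, the BH3-only protein best known for killing blood cells deprived of cytokine, read 8.76 and 8.60 with DMSO and 8.55 and 8.74 with retinoic acid. The groups overlapped, and the 95% interval of the difference ran from -0.32 to 0.25. Bad, whose protein is held inactive by survival kinases, differed by 0.16 ± 0.11 (log2, SE). The p53 targets Pmaip1 (Noxa) and Bbc3 (Puma) differed by 0.13 ± 0.17 and -0.09 ± 0.10. Bik differed by 0.00 ± 0.09. Hrk was under the dim level in both groups, so its difference of -0.01 ± 0.13 does not show whether it responded.

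Among 7 caspase and apoptosome genes, Casp6 fell, 0 rose and 6 did not pass, with a median log2 difference of -0.00. Casp6 (probe set 17402595) read 11.19 on each DMSO array and 10.28 and 10.04 with retinoic acid. Both retinoic acid arrays were lower, with a gap of 0.91 to the DMSO arrays. The means were 11.19 ± 0.00 and 10.16 ± 0.17 (SD, n = 2), a difference of -1.03 ± 0.11 (log2, SE; limma adjusted p = 0.0243), and between -1.15 and -0.91 without any 1 array.

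The initiator caspase genes did not pass. Casp9, activated on the apoptosome, read 8.55 and 8.56 with DMSO and 8.30 and 8.37 with retinoic acid, and its difference of -0.22 ± 0.08 (log2, SE) had a limma adjusted p of 0.329. Casp8, activated by death receptors, differed by 0.12 ± 0.09, and Casp2, an initiator linked to genome stress, by 0.05 ± 0.09. Apaf1, the scaffold of the apoptosome, differed by 0.13 ± 0.09. Cycs, which encodes cytochrome c, had 5 probe sets, 2 of which carried identical values on every array, and their differences lay between -0.05 and 0.04. Diablo, which encodes Smac, an antagonist of inhibitor of apoptosis proteins, differed by -0.00 ± 0.08, with a 95% interval from -0.21 to 0.20.

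The inhibitor of apoptosis proteins had 0 of 3 genes past the test. Xiap, which blocks caspases directly, differed by -0.01 ± 0.09 (log2, SE). Birc2 and Birc3, neighbouring genes whose proteins attach ubiquitin to signalling partners in the TNF pathway, differed by -0.41 ± 0.14 (limma adjusted p = 0.308) and -0.17 ± 0.12 (adjusted p = 0.651). Birc2 read 8.68 and 8.66 with DMSO and 8.44 and 8.09 with retinoic acid, with no overlap between groups, and the groups of Birc3 overlapped.

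In the death receptor group 0 of 3 genes passed. The receptor gene Fas read 8.58 and 8.87 with DMSO and 8.02 and 7.41 with retinoic acid. Both arrays with retinoic acid were lower, but they also lay far from each other, and the difference of -1.01 ± 0.23 (log2, SE), 2.01-fold lower, did not pass (limma adjusted p = 0.152). Its 95% interval, from -1.61 to -0.41, was the only one among the 28 members that did not pass to reach beyond 2-fold. Fadd, the adaptor that joins Fas to Casp8, read 7.90 and 8.08 with DMSO and 8.27 and 8.29 with retinoic acid, a difference of 0.29 ± 0.10 (adjusted p = 0.301). Cflar, the inhibitor of that complex, differed by -0.10 ± 0.13, with overlapping groups.

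Of the 3 genes of necroptosis and pyroptosis, Mlkl rose, 0 fell and 2 did not pass. Mlkl (probe set 17513076), whose protein ruptures the plasma membrane once Ripk3 has phosphorylated it, read 9.10 and 9.15 with DMSO and 10.20 and 10.23 with retinoic acid. The gap between the groups was 1.05, the widest among the 4 called members. The means were 9.12 ± 0.04 and 10.21 ± 0.02 (SD, n = 2), a difference of 1.09 ± 0.08 (log2, SE; limma adjusted p = 0.0103), and between 1.06 and 1.11 without any 1 array. Ripk3, the kinase, read 9.96 and 9.93 with DMSO and 9.48 and 9.28 with retinoic acid; both arrays were lower, and the difference of -0.56 ± 0.10 did not pass (adjusted p = 0.0846). Gsdmd, which forms the pores of pyroptosis, differed by -0.15 ± 0.09 in its brighter probe set and by 0.02 ± 0.12 in the other.

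Cdkn1a (probe set 17335467), a classical target of p53 that blocks cyclin-dependent kinases and can also protect monocytic cells from apoptosis, read 12.19 and 12.05 with DMSO and 11.39 and 11.22 with retinoic acid. Both retinoic acid arrays were lower, with a gap of 0.66. The means were 12.12 ± 0.10 and 11.30 ± 0.12 (SD, n = 2), a difference of -0.82 ± 0.10 (log2, SE; limma adjusted p = 0.0388), and between -0.90 and -0.73 without any 1 array.

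Of the 28 members that did not pass, 23 had a 95% interval within 1.5-fold in either direction and 27 within 2-fold. Over all 32 members the DMSO and retinoic acid arrays did not overlap for 19 (59.4%), 8 higher and 11 lower with retinoic acid, beside 48% of all genes. Non-overlap of 2 arrays with 2 is therefore frequent in this series.

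Promoter sequences are shown for the 4 called members, since each differed between the treatments and the binding sites of p53 and of cytokine-activated STAT factors are known by their letters. They come from RefSeq on GRCm38.p6 and run from 250 bases before a gene's start to 50 after it, 5′ to 3′ along the gene. Capitals mark a match to a searched motif. The motifs, searched on both strands, were the core of 2 adjoining p53 half-sites (CATGNNNNNNCATG), the STAT site with 3 spacer bases (TTCNNNGAA), the STAT6 spacing with 4 (TTCNNNNGAA), direct repeats bound by retinoic acid receptors (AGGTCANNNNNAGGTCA and AGGTCANNAGGTCA) and an IRF repeat (GAAANNGAAA).
Cdkn1a, upstream start, chr17:29090729-29091028, plus strand: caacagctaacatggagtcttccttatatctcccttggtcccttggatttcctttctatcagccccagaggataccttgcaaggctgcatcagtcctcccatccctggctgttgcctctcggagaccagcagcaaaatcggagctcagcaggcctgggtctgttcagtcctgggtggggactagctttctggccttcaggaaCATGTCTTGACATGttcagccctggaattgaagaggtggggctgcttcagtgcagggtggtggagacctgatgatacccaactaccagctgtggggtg
Bcl2l1, most downstream of 3 starts, chr2:152828440-152828739, minus strand: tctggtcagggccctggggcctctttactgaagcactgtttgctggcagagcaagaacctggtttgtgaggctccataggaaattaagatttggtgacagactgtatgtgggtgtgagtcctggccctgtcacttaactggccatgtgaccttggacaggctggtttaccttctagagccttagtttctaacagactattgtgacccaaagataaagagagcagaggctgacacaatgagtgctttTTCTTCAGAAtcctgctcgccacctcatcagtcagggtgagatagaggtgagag
Casp6, chr3:129901165-129901464, plus strand: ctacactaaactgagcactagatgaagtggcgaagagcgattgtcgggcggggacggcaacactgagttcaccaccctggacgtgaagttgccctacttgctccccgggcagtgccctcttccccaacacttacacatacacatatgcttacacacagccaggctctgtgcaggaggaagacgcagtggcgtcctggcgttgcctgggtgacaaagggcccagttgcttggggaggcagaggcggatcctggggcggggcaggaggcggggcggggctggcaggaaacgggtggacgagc
Mlkl, chr8:111338156-111338455, minus strand: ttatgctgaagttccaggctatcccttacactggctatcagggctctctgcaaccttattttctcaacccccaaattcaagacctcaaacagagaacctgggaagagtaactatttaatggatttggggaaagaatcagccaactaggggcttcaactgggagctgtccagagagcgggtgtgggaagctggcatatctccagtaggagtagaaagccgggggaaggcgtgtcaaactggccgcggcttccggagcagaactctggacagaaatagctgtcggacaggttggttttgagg

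The Cdkn1a window held the p53 core as CATGTCTTGACATG, its first base at -48 from the start, a motif found in 0.712% of 32851 promoter windows of this length. The Bcl2l1 window held the STAT6 spacing as TTCTTCAGAA, beginning at -4, a motif in 6.95% of all windows. No searched motif was found in the Casp6 and Mlkl windows, in the other 2 windows of Bcl2l1 or in the downstream window of Cdkn1a. The letters at the retinoic acid receptor repeats were rare in every promoter (0.00913% of windows for each) and absent from all 41 windows of the 29 members that had one. A match in these letters describes the window only.

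Outside the members, the same fit was read over lists of other genes of these pathways. Of 163 such genes, each counted once, 13 passed, 7 higher and 6 lower, beside 3.07% of all genes. As with the members, limma called 0 of the 163 without DMSO replicate 1, DMSO replicate 2, retinoic acid replicate 1 or retinoic acid replicate 2 (31 to 41 at an unadjusted p under 0.05) and 0 with the constant probe sets kept (56), so each rise or fall named below rests on all 4 arrays and on that exclusion. With the replicate number as a block, 2 of the 163 passed, Traf1 (limma adjusted p = 0.0379) and Ccnd2 (0.0464), so the other genes named lost their call there. The share of all genes at an unadjusted p under 0.05 was not computed for these alternative fits. The p53 targets, set beside Cdkn1a, had 1 rise, 0 falls and 27 genes that did not pass, with a median log2 difference of -0.01. The gene that rose was Sesn1, a stress-responsive regulator of growth signalling, 1.64-fold (limma adjusted p = 0.0324). Of 30 cyclin-dependent kinase inhibitors and cell cycle genes 1 rose and 2 fell, with a median of 0.03. Ccnd2, a D-type cyclin, rose 3.85-fold (adjusted p = 0.0074), while its relative Ccnd3 was 1.87-fold lower (0.0218) and the transcription factor gene E2f2 2.34-fold lower (0.0127). Cdkn1a is counted in neither list.

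Around Mlkl, the inflammasome and lytic death list had 3 rises, 1 fall and 15 genes that did not pass, with a median log2 difference of 0.19. Zbp1, a nucleic acid sensor that can activate Ripk3, rose 1.61-fold (limma adjusted p = 0.0348), from 7.91 and 7.96 to 8.68 and 8.58. The inflammasome adaptor Pycard rose 1.6-fold (0.0298), and Nlrc4, a sensor component for bacterial proteins, rose 1.61-fold (0.042). Nlrp3, an inflammasome sensor, was 1.7-fold lower (0.0204), at 9.69 on each DMSO array and 8.92 on each with retinoic acid. Inflammasome genes thus passed in both directions.

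Of 16 other caspase genes, substrates and inhibitors, 2 rose and 14 did not pass, with a median of 0.06. These were Cradd, an adaptor of Casp2, which rose 1.91-fold (limma adjusted p = 0.0244), and Naip6, which belongs to the NAIP family of close copies that probes may not separate, 1.5-fold (0.0494). Of 29 genes of death receptors, their ligands and TNF signalling, Traf1 fell, 0 rose and 28 did not pass, with a median of -0.07. Traf1, an adaptor that works with Birc2 and Birc3, was 3.5-fold lower (0.00431). Tnf, chosen after its values were seen, read 11.47 and 11.10 with DMSO and 10.15 and 9.78 with retinoic acid and did not pass (-1.32 ± 0.19, log2, SE; adjusted p = 0.0505).

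Of 27 survival signalling genes 2 fell and 25 did not pass, with a median log2 difference of -0.09. Jak2, the kinase that carries the GM-CSF signal, was 1.55-fold lower (limma adjusted p = 0.0448), and Pik3cg, a phosphoinositide kinase of leukocytes, 1.57-fold lower (0.0325). Of 18 other Bcl2 relatives and mitochondrial death genes 0 passed, with 5 at an unadjusted p under 0.05 and a median of -0.04. The largest differences in that list were 0.63 for Aifm2 and -0.42 for Bnip3, with adjusted p of 0.193 and 0.101.

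**Figure D4:**
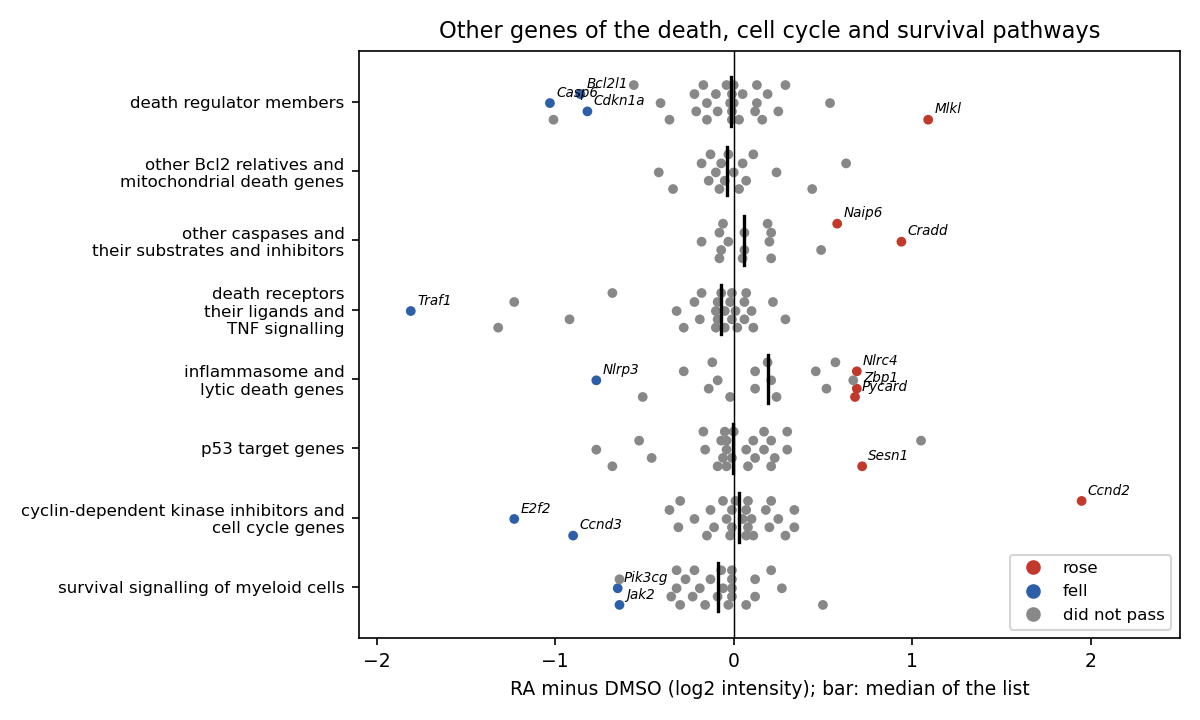
Difference between retinoic acid (RA) and DMSO (x axis, log2 intensity) of the 32 death regulators and of 7 lists of other pathway genes, 1 point per gene, with bars at list medians; red and blue points passed as higher or lower at a limma adjusted p under 0.05. List medians lie between -0.09 and 0.19, and Ccnd2 (1.95) and Traf1 (-1.81) stand farthest from 0.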

How the data were processed

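Total RNA from 4 samples was read on 1-colour Affymetrix whole-transcript arrays. The authors deposited 1 linear intensity per probe set and array, made with Affymetrix Expression Console and RMA per the submitters' processing notes; versions and a genome build are not given in the sources used here. RMA adjusts for background, and differences of dim genes may still be understated, which was not tested. Here log2 was taken of these values, with no further normalization. Array medians lay between 80.0 and 81.8, and the number of arrays limits precision.

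Of 41345 probe sets, 1625 with one constant value on all arrays, none with a gene symbol, were left out. All 4 arrays entered limma 3.58.1 (R 4.3.3; lmFit, eBayes, two-sided, no covariate), with Benjamini-Hochberg adjustment over 39720 probe sets. The fit was tested on simulated data. Names came from the platform annotation (23521 probe sets with 1 symbol, 1814 with several, 16010 unnamed here), and all 32 measured members matched RefSeq gene identifiers. All members were named. Of each list of other pathway genes up to 4 genes past the threshold with the largest difference were named, or 2 where none passed. Genes of the marker lists were not named by this rule. Members, lists, the dim level and the exclusion of constant probe sets were chosen with earlier results of these data known. Alternatives were constant probe sets kept, probe sets with 1 symbol, brighter probe sets, an intensity trend, robust variances, quantile normalization, the mean of a gene's probe sets, replicate blocks and each array left out.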

Additional observations from a re-analysis of the deposited data

How the results depend on the processing

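The counts of genes past the threshold depended on the processing. The differences could not change where an alternative altered only the variances, the probe sets tested or a replicate block. They could change with quantile normalization, with an array left out and, for genes with several probe sets, with their mean. Of 415 differences of members under the alternatives, the fixed ones included, 22 changed sign. These were in 11 members that did not pass and that differed by at most 0.13 on the log2 scale. Of these sign changes 0 were in the 4 called members, whose groups did not overlap, so leaving out an array could not change their sign. Robust variances, quantile normalization and the mean of a gene's probe sets called 4 members, the same genes as reported. Each of these 4 genes had 1 probe set, so the mean could not change its values. Of all genes, 3.05% passed with robust variances and 3.03% with quantile normalization, and the share with the mean of probe sets was not computed. With the constant probe sets kept, limma called 0 members and 0 other pathway genes (0 of all genes; 10 members at an unadjusted p under 0.05). With only probe sets of 1 symbol it called 7 members (7.2% of all genes), adding Bcl2a1a (adjusted p = 0.0117), Ripk3 (0.0153) and Fas (0.0314), and 28 other pathway genes. With brighter probe sets it called 6 members (7.84% of genes) and 22 pathway genes, and with an intensity trend 6 (4.11%) and 18; both added Bcl2a1a and Ripk3. Without any 1 array the counts ran from 0 to 0 for members and for pathway genes.

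Same-numbered samples did not deviate together (correlation of deviations from the group means -0.251), and the labels do not say that a number marks a shared culture. The fit with the replicate number as a block called 0 members (8 at an unadjusted p under 0.05) and 2 other pathway genes, beside 0.64% of all genes. The adjusted p with the block was 0.0676 for Mlkl, 0.0903 for Casp6, 0.0974 for Cdkn1a and 0.119 for Bcl2l1. The crossed pairing, DMSO replicate 1 with retinoic acid replicate 2, was added after the data were seen and called 2 members and 4 pathway genes (1.67% of genes). The number of arrays limits the precision.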

Other observations

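Among the promoter windows of members that did not pass, the STAT spacing of 3 bases was found in Fas (TTCTGGGAA, beginning at -93 from the start) and the spacing of 4 bases in Fadd (TTCTGGTGAA, at -184) and Bok (TTCCTTAGAA, at 13). The first motif stood in 1 of the 41 member windows, beside 8.3% of all windows, and the second in 3, beside 6.95%. The IRF repeat stood in 1 window, that of Cflar (TTTCGGTTTC, at 7), beside 3.44% of all windows. The other probe sets shared between a member and another gene, annotated to Gpr137 with Bad and to Diablo with B3gnt4, differed by -0.04 ± 0.09 and -0.00 ± 0.11 (log2, SE), and the second was under the dim level in both groups.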
